A study of Homo sapiens with 6 samples.

Results

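The regions described here were accessible in MCF-10A cells of all 3 PIK3CA genotypes and had a peak at least 2-fold weaker in both the E545K and the H1047R knock-in than in wild type (WT). Peaks of the 3 deposited lists were joined where they touched or overlapped, which gave 120615 regions, of which 69662 held exactly 1 peak of each list. The strength of a peak was its area, the authors' value for an area under the peak caller's -log10 p curve. Whether this area counts the whole curve or only the part above a cut-off was not tested. It was taken on the log2 scale with the median of each list over the 69662 shared regions subtracted. Regions at -1 or below in E545K minus WT and in H1047R minus WT were the members, 634 in all or 0.91% of the shared regions. The members were thus chosen by these areas, and every difference in area, width or height below describes the choice and none was tested.

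MCF-10A is a non-tumorigenic human breast epithelial line, profiled here by ATAC-seq, an assay that marks open DNA through insertions of the transposase Tn5. PIK3CA encodes the catalytic PI3K subunit, and the E545K line carried a knock-in change in its helical domain, the H1047R line a knock-in change in its kinase domain and the parental WT line neither. E545K and H1047R cells were kept without EGF (0 ng/ml) and WT cells with 20 ng/ml EGF until the last 24 h, which all spent in a medium of low EGF (0.2 ng/ml) and 1% charcoal-stripped serum. Insulin, hydrocortisone and cholera toxin were present throughout in every group. Each genotype had 2 samples but 1 peak list, made from both together, so there is no spread between replicates, sequencing depth is unknown, and genotype cannot be told apart from the medium the cells were kept in. The sources used here do not give the number of clones behind each knock-in line, and the genotypes rest on the labels alone.

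PI3K makes the membrane lipid that recruits the kinase AKT, and E545K and H1047R are activating mutations common in breast cancer. AKT phosphorylates FOXO transcription factors and holds them out of the nucleus. Accessible regions away from gene starts are mostly enhancers, which in basal breast epithelium are typically bound by AP-1, TEAD and p63, and hydrocortisone acts through the glucocorticoid receptor, which binds DNA as a dimer on an inverted repeat.

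The sequences below are the plus strand of hg38 around the WT summit, 100 bp to each side, cut short where an annotated UTR begins. Capitals mark matches on either strand to 5 motifs: AP-1 (TGANTCA), TEAD (GGAATG), glucocorticoid receptor (GNACA and TGTNC with 3 bases between), p53-p63 (CATG 2 times with 6 bases between) and forkhead (TGTTTAC, the letters FOXO proteins also bind). The first 2 are the member with the lowest E545K difference, in an intron of SLCO4A1, shown as an extreme, and a member in front of the start of ZNF879, 1 of only 8 at a promoter.
SLCO4A1 (chr20:62656188-62656358): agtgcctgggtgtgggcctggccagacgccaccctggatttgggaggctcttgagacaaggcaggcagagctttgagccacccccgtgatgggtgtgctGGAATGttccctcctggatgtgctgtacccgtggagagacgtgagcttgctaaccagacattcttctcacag
ZNF879 (chr5:179023629-179023803): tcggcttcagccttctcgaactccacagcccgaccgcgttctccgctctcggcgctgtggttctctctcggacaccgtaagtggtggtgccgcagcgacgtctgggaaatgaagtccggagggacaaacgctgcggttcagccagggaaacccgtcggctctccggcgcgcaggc
The SLCO4A1 window holds 1 TEAD match, and the ZNF879 window holds none of the 5 motifs.

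The next 3 are shown because they lie near genes of the FOXO and glucocorticoid lists and hold an AP-1 match. The CCNG2 window also holds a glucocorticoid receptor match and a p53-p63 match.
CCNG2 (chr4:77251199-77251399): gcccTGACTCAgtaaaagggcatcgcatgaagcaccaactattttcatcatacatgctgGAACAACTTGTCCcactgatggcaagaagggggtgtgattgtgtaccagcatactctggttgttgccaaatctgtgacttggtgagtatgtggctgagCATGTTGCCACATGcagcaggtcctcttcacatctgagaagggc
KLF6 (chr10:3716226-3716426): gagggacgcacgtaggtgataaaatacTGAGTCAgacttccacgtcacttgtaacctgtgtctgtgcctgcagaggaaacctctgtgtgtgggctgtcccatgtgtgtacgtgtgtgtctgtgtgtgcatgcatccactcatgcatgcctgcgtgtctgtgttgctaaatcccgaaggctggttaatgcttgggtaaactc
KLF9 (chr9:70438684-70438884): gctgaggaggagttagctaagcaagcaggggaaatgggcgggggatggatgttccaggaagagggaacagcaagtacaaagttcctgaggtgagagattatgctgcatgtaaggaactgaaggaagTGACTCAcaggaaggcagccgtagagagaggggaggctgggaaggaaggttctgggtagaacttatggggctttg
The last 3 are other named members with a glucocorticoid receptor match, a set chosen after the values were seen.
CXCR4 (chr2:136136300-136136500): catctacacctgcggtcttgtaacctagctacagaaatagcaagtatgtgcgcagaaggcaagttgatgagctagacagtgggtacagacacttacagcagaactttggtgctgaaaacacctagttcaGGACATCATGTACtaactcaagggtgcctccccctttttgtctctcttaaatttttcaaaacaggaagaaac
RTN1 intron, nearest coding start CCDC175 (chr14:59695235-59695435): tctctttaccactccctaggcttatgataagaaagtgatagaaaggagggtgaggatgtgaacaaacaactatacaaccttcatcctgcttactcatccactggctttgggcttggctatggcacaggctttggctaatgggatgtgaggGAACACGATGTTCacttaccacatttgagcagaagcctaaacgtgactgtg
FZD2 (chr17:44552456-44552656): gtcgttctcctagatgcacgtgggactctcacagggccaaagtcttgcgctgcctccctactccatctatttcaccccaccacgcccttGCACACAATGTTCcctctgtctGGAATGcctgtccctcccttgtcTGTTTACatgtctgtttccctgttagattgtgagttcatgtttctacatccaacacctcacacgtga
The FZD2 window holds a glucocorticoid receptor, a TEAD and a forkhead match within a short stretch. A match describes letters only and says nothing about which factor was bound.

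The members were peaks of middling strength in WT and of low strength in both knock-ins. Their median area was 311 in E545K, 423 in H1047R and 1036 in WT, with ranges of 200 to 2466 in E545K, 200 to 3556 in H1047R and 514 to 7623 in WT. Each list held no area under 200, so the weakest members stood at the edge of detection in the knock-ins. Ranked within its own list over the shared regions, the median member stood at percentile 15.3 in E545K, 16.1 in H1047R and 57.3 in WT. For the difference itself the median was -1.32 in E545K and -1.31 in H1047R, and the lowest were -3.94 and -3.31.

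At -1 or below, 2434 shared regions (3.49%) lay in E545K and 2547 (3.66%) in H1047R, so that the members made up 26.0% of the E545K regions and 24.9% of the H1047R regions. Both differences use the same WT list, so the count that met both says nothing by itself about a likeness of the knock-ins. In the other direction, 4.52% of shared regions were at 1 or above in E545K, 4.49% in H1047R, and 1293 (1.86%) in both. A region could be a member only if its WT area was at least 475, since the knock-in lists held nothing below 200. Of the 53007 regions with such a WT area the members were 1.2%, and the other 52373 serve below as the comparison set, called the other strong-enough regions.

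**Figure D1:**
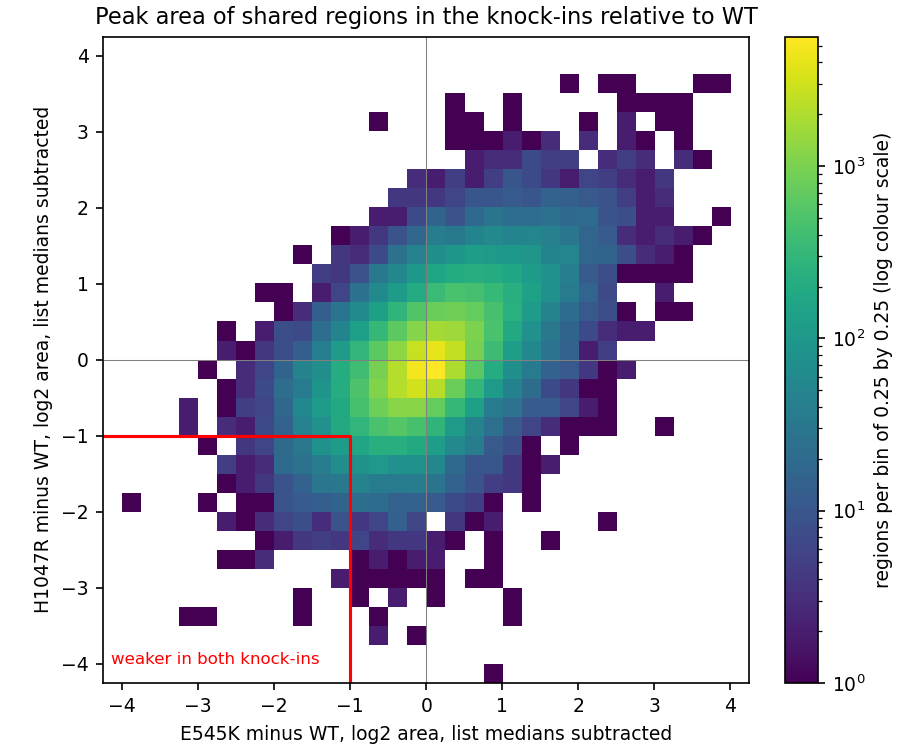
Difference in log2 peak area, with list medians subtracted, in E545K minus WT (x axis) and H1047R minus WT (y axis) for all 69662 shared regions, as the number of regions per bin on a log colour scale. Most regions sit around 0 on both axes, and the 634 members fill the lower left corner below -1 on both.

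Within the members the knock-ins had much the same size of difference. E545K was the lower of the pair in 306 members (48.3%), and the differences lay within 0.5 of each other in 483 (76.2%). The rule cuts both differences at the same threshold and both use the WT list, so this closeness says nothing by itself about a likeness of the knock-ins. E545K was lower than H1047R by more than 1 in 15 members, and H1047R lower than E545K by more than 1 in 17. Both differences were at -1.5 or below in 92 members (14.5%) and at -2 or below in 14.

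Many members lay close to the threshold: in 202 (31.9%) the larger of the 2 differences was above -1.1. The members nearest inside were regions whose nearest coding starts were those of SORCS3 (944667 bp away, at the threshold in E545K, -1.96 in H1047R), SAMD4A (10084 bp away, at the threshold in E545K, -1.77 in H1047R) and TSC22D2 (98531 bp away, -1.19 in E545K, at the threshold in H1047R). The regions nearest outside were one in a COL4A2 intron nearest the start of RAB20 (-1.63 in E545K, just above the threshold in H1047R), one in CLPTM1L (just above it in E545K, -1.55 in H1047R) and one in an intron of ADD2 (-1.15 in E545K, just above it in H1047R).

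The lower area came from narrower and from lower peaks together. The median width was 363 bp in E545K, 385 bp in H1047R and 632 bp in WT, against 673 bp, 689 bp and 675 bp in the other strong-enough regions. Members were narrower than in WT in 624 of 634 cases (98.4%) in E545K and in 622 (98.1%) in H1047R. In the other strong-enough regions these shares were 55.8% and 45.4%. The area per bp, used here as a measure of height, had a median of 0.943 in E545K, 1.15 in H1047R and 1.79 in WT.

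On the log2 scale without subtracting list medians, the median difference in width was -0.68 in E545K and -0.61 in H1047R, and that in area per bp was -0.96 and -0.71. On this uncentred scale width made up the larger share of the difference in 257 members in E545K and in 285 in H1047R. With list medians subtracted, the median difference in width was -0.69 in E545K and -0.67 in H1047R. For area per bp it was then -0.70 and -0.73, so the 2 parts were about even in both knock-ins. The -log10 p at the summit had a median of 3.01 in E545K, 3.41 in H1047R and 4.97 in WT. Its median difference with list medians subtracted was -0.52 in E545K and -0.55 in H1047R. The summit was lower than in WT, as deposited, in all 634 members in E545K and in 631 in H1047R. The E545K list was lower as a whole, with a median summit value over shared regions of 4.28, against 4.84 in H1047R and 4.82 in WT. With the area per bp in place of the area the same rule took 112 regions, and with the summit value 4. A cut at -1 is not alike on these values. In the other strong-enough regions the centred E545K differences had quartiles of -0.31 and 0.23 for the area. For the summit value they were -0.13 and 0.11.

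**Figure D2:**
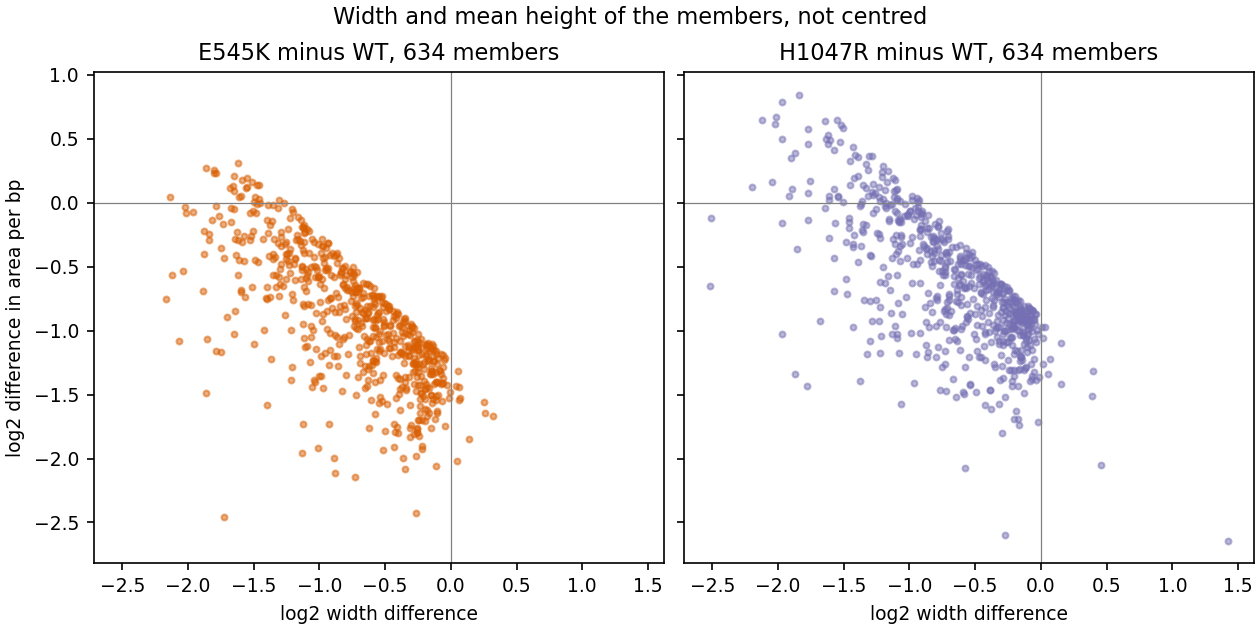
Log2 difference in peak width (x axis) against log2 difference in area per bp (y axis) for the 634 members, E545K minus WT on the left and H1047R minus WT on the right, without subtracting list medians. The cloud runs from members that are mainly narrower (left) to members that are mainly lower (bottom), and its straight upper edge is the membership threshold.

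The summit stood at about the same position in most members. The knock-in summit lay a median of 10 bp from the WT summit in E545K and 9 bp in H1047R, and within 50 bp of it in 535 members (84.4%) in E545K and 536 (84.5%) in H1047R. The other strong-enough regions kept it somewhat more closely, with a median of 5 bp in each knock-in and 89.6% and 89.3% within 50 bp. The knock-in peak lay wholly inside the WT peak in 590 members (93.1%) in E545K and 580 (91.5%) in H1047R, against 42.0% and 30.8% of the other strong-enough regions. Choosing by area also chose narrower knock-in peaks, so this share is not independent of the choice.

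The 12 members with the lowest mean of the 2 differences had knock-in areas of 200 to 530 in both lists, apart from 1116 in H1047R at SLCO4A1. The region nearest TMTC1, a gene for an O-mannosyltransferase of the endoplasmic reticulum, was intergenic and had an area of 239 in E545K, 266 in H1047R and 2452 in WT, or differences of -3.11 and -3.31. The region in a coding exon of ESR2, which encodes oestrogen receptor beta, had 280 in E545K, 267 in H1047R and 2473 in WT (chr14:64234153-64236276, differences of -2.90 and -3.31). In these 2 regions the knock-ins stood level with each other and far below WT. Of the 10 shared regions assigned to TMTC1, 1 other was stronger in both knock-ins.

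The intronic region of SLCO4A1, an organic anion transporter gene, was split: it had 200 in E545K, 1116 in H1047R and 3640 in WT (chr20:62655775-62657354, differences of -3.94 and -1.80). A region 13675 bp from the start of FZD2, a WNT receptor gene, was split the other way, with 530 in E545K, 229 in H1047R and 2067 in WT (chr17:44543025-44544270, differences of -1.72 and -3.27). A region 31052 bp from ANXA2R, on the short arm of chromosome 5, had 489 in E545K, 225 in H1047R and 1793 in WT (chr5:43009082-43009953). The SLCO4A1, FZD2 and ANXA2R regions thus combine a strong reduction in both lists with a gap between the knock-ins.

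The region nearest GZMH, which encodes a granzyme of cytotoxic lymphocytes, had 320 in E545K, 404 in H1047R and 2468 in WT (chr14:24595063-24596288). The region 2710 bp from KCNJ18, an inward-rectifier potassium channel gene, had 252 in E545K, 243 in H1047R and 1501 in WT (chr17:21689258-21690298). KCNJ18 has a near-identical copy, KCNJ12, and the sources used here do not say how reads that fit several places were treated, so this value is uncertain. The region in a UTR exon of CYSLTR2, a cysteinyl leukotriene receptor gene, had 316 in E545K, 256 in H1047R and 1608 in WT (chr13:48709186-48709701).

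The remaining 4 of the 12 lay far from a coding start. The region whose nearest start is that of KCND2, a voltage-gated potassium channel gene, lay 219965 bp away and had 387 in E545K, 314 in H1047R and 1960 in WT (chr7:120052857-120053599). An intronic region of CLNK, an adaptor gene of immune-receptor signalling, had 215 in E545K, 414 in H1047R and 1638 in WT (chr4:10581004-10581569). An intronic region of CELF4, a gene for an RNA-binding splicing regulator, had 273 in E545K, 488 in H1047R and 1972 in WT (chr18:37418972-37419896). The last, with RPIA as the nearest start at 2837013 bp, had 271 in E545K, 266 in H1047R and 1517 in WT (chr2:91527656-91528923). None of the 12 was a promoter.

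**Figure D3:**
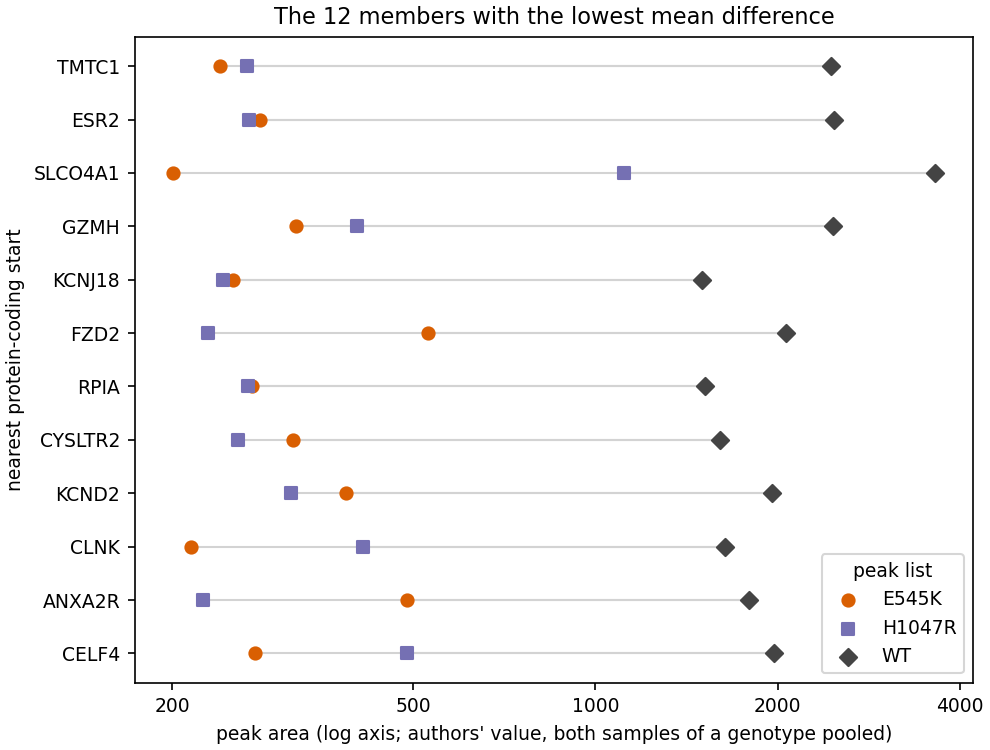
Peak area on a log axis in the E545K, H1047R and WT lists for the 12 members with the lowest mean difference, named by the nearest protein-coding start, each point being 1 value pooled by the authors over both samples. In all 12 both knock-in points lie left of the WT point, and the gap between the knock-ins is widest at SLCO4A1.

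The SLCO4A1 region and the 4 that follow were among the 6 members with the largest WT area. A region 250568 bp from RREB1, a zinc-finger transcription factor gene downstream of RAS, had 1814 in E545K, 2656 in H1047R and 5299 in WT (chr6:6856489-6857892). A region 18251 bp from CXCR4, the receptor gene for the chemokine CXCL12, had 1570 in E545K, 1728 in H1047R and 4027 in WT (chr2:136135753-136137712). For scale, the median area over all shared regions was 725 in E545K, 921 in H1047R and 861 in WT.

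A region 17188 bp from GPR141, an orphan receptor gene, had 1507 in E545K, 1739 in H1047R and 3931 in WT (chr7:37665529-37667182). A region in an intron of RTN1, a reticulon gene of the endoplasmic reticulum, whose nearest coding start is that of CCDC175, had 1025 in E545K, 1070 in H1047R and 3630 in WT (chr14:59694666-59695674). The CXCR4 and RTN1 regions are among the sequences with a glucocorticoid receptor match printed above.

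Members were rare at promoters. A WT summit within 1 kb of the start of a coding gene was found in 8 members, or 1.26% (Wilson 95% interval 0.641 to 2.47, like all intervals given here for counting error alone), against 4.02% of the regions stronger in both knock-ins and 17.7% (17.4 to 18.0) of the other strong-enough regions. Introns held 46.8% of members and intergenic sequence 48.4%, against 40.2% and 39.7% of the other strong-enough regions, and 22 members (3.47%) lay in exons. The median distance to a coding start was 58.7 kb for members, 45.2 kb for regions stronger in both and 28.8 kb for the other strong-enough regions. More than 100 kb from any coding start lay 36.3% of members (32.6 to 40.1), 30.0% of regions stronger in both and 23.5% of the other strong-enough regions.

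Promoter peaks are large, so the shares were also set side by side within 4 bins of WT area that hold about equal numbers of strong-enough regions. From the lowest to the highest bin, promoters made up 0.847%, 1.22%, 1.76% and 0% of members (0 of 44 in the highest, upper bound 8.03%), against 2.54%, 4.31%, 13.1% and 50.5% of the other strong-enough regions. The members' share was the lower one in each bin.

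The 8 promoter members belonged to CAPNS2, ZNF879, NXPH3, CDH16, CNTNAP1, ADD2, SNX22 and ALDH3A1. The region at ZNF879, a zinc-finger gene, had 317 in E545K, 502 in H1047R and 1291 in WT, 75 bp from the start (chr5:179023568-179024142). The region at CAPNS2, which encodes a small calpain subunit, had 331 in E545K, 208 in H1047R and 968 in WT (chr16:55567180-55567892), and its summit lay in the UTR of this short gene, itself inside LPCAT2. The region at CNTNAP1, a gene for a protein of axon-glia junctions, had 402 in E545K, 638 in H1047R and 1309 in WT. With the area per bp the E545K difference at CAPNS2 was 0.49. None of the 8 exceeded a WT area of 1309.

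NXPH3, a neurexophilin gene, had 399 in E545K, 545.4 in H1047R and 1239 in WT at its start. Of the 8 shared regions assigned to NXPH3, 1 other was stronger in both knock-ins. CDH16, a kidney cadherin gene, had 248 in E545K, 306 in H1047R and 716 in WT. ADD2, which encodes beta-adducin of the membrane skeleton, had 364 in E545K, 597 in H1047R and 1183 in WT at its start. The sorting nexin gene SNX22 (293 in E545K, 391 in H1047R, 827 in WT) and the aldehyde dehydrogenase gene ALDH3A1 (312, 372 and 753) were, with CDH16, the weakest of the group in WT.

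Members tended to stand near regions open in WT alone. A region with a peak in the WT list only lay within 50 kb of 299 members, or 47.2% (43.3 to 51.1), against 22.7% of the regions stronger in both and 32.8% of the other strong-enough regions. By the same bins this share was 44.9%, 42.0%, 49.3% and 70.5% of members, against 29.4%, 32.2%, 33.7% and 35.7% of the other strong-enough regions. Next, the shared regions within 50 kb of a member were taken, leaving out members and also the regions stronger in both. These 2376 regions had a median difference of -0.11 in E545K and -0.22 in H1047R, with 61.6% and 70.7% below 0. Leaving out the regions stronger in both lowers these values. Within 50 kb of the other strong-enough regions these medians were 0.01 and -0.07. That set of 65396 includes the strong-enough regions themselves and so covers most shared regions. It is no like-for-like set of neighbours. These neighbours come from the same 3 lists, so they are no independent sample.

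**Figure D4:**
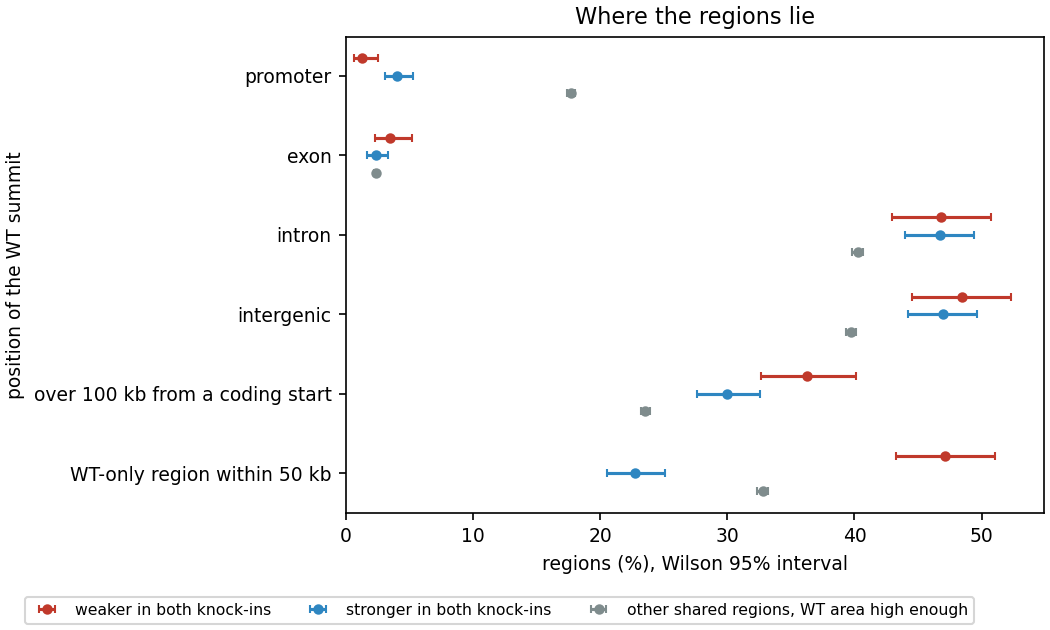
Share of regions by position of the WT summit, as percent with Wilson 95% interval, for members, regions stronger in both knock-ins, and the other strong-enough shared regions. Members lie lowest at promoters (1.26%) and highest for a WT-only region within 50 kb (47.2%).

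Members were scattered, with some groups. In all 550 members (86.8%) stood alone, and 84 (13.2%) lay within 100 kb of another member, in 36 groups. Over whole chromosomes the members' share of strong-enough regions ran from 0.787% on chromosome 18 and 0.791% on chromosome 22 to 1.95% on chromosome 13. The short arm of chromosome 5 stood above that range: 27 of its 693 strong-enough regions were members, or 3.90% (2.69 to 5.61). The non-member shared regions of that arm were lower as well, with a median of -0.33 in E545K and -0.34 in H1047R, against 0.09 and 0.00 on the rest of chromosome 5. The part of this arm-wide shift in its members was not tested.

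The largest group, singled out after the values were seen, held 7 members at the killer-cell immunoglobulin-like receptor (KIR) cluster on chromosome 19 (chr19:54747340-54952983), which encodes inhibitory and activating receptors of natural killer cells. With 100 kb added on each side, 7 of the 9 shared regions there were members, 9 further regions were open in WT alone, and 0 regions were open in a knock-in without WT. The strongest, in an intron of KIR2DL1, had 1148 in E545K, 1026 in H1047R and 3577 in WT. Members in KIR2DL3 (556 in E545K, 534 in H1047R, 1973 in WT), beside KIR2DL1 (434, 609 and 1807) and in KIR2DS4 (341, 272 and 1435) followed. The KIR genes are close copies of each other, so that reads there may fit several places, which makes these values uncertain too.

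Outside the KIR genes proper, the group took in a region beside NCR1, a natural killer receptor gene, with 212 in E545K, 243 in H1047R and 906 in WT, and one in NLRP7, an inflammasome gene family member, with 409, 567 and 1215. A member in KIR3DL2 had 248 in E545K, 205 in H1047R and 818 in WT. Beside this locus and that of GZMH stands the state of 18 immune marker promoters: 15 had no peak in any list, and peaks were found at 3 in E545K, 2 in H1047R and 2 in WT. For comparison, 18 of 21 basal and 15 of 20 luminal marker promoters had a peak in all 3 lists.

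Groups of 3 members lay at 7 further places, and their surroundings were again counted with 100 kb added on each side. Near LMO7, a LIM-domain gene whose start lies over 330 kb away, 3 of the 4 shared regions were members (chr13:75967913-76024282), and the strongest had 706 in E545K, 1067 in H1047R and 2180 in WT. In introns on chromosome 14, with the ESR2 start the nearest at 180055 to 219238 bp, lay 3 further members (chr14:64074774-64115597), with 13 regions open in WT alone on the widened stretch, and the strongest had 225 in E545K, 568 in H1047R and 1706 in WT. At TPRG1, beside TP63 on chromosome 3, 3 of 19 shared regions were members, the strongest in an intron with 875 in E545K, 965 in H1047R and 2673 in WT (chr3:189276380-189277366). Other such groups lay at ZNF281, at CAPNS2 and between IL17B and CSNK1A1.

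By the rule that gives each region to the nearest coding start within 100 kb, 404 members (63.7%) belonged to 383 genes, of which 365 had 1 member, 15 had 2 and 3 had 3 or more. Among the genes with at least 3 were ZNF281 and CAPNS2. ZNF281 encodes a zinc-finger transcription factor, and its strongest member, in its own UTR exon, had 262 in E545K, 442 in H1047R and 1232 in WT (chr1:200405309-200406301), although with the area per bp its H1047R difference was 0.63. At CAPNS2 the strongest lay in an intron of LPCAT2 and had 828 in E545K, 895 in H1047R and 2541 in WT (chr16:55568135-55569475). The members were 3 of 20 shared regions assigned to ZNF281 and 3 of 6 assigned to CAPNS2.

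Motif letters were counted within 100 bp of the WT summit on both strands. Since promoters are rare among members, the shares below are over regions outside promoters, 626 members, and beside them the 43104 other strong-enough regions. AP-1 letters were less frequent in members, at 29.7% (26.3 to 33.4), against 38.3% in regions stronger in both and 41.2% in the other strong-enough regions. By bins of WT area, promoters included, AP-1 letters stood at 30.5%, 27.3%, 33.0% and 20.5% of members from the lowest to the highest bin, against 40.8%, 41.5%, 37.2% and 19.0% of the other strong-enough regions, so the members' share was not the lower one in the highest bin. TEAD letters were more frequent, at 28.3% (24.9 to 31.9), against 15.0% and 20.1%. Members thus held AP-1 and TEAD letters about equally often, where the other strong-enough regions held AP-1 letters far more often.

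The 3 rarer motifs with capitals above also had higher shares in members. The glucocorticoid receptor letters were found in 2.88% (1.83 to 4.50) of members, 1.21% of regions stronger in both and 0.972% of the other strong-enough regions. The p53-p63 letters were found in 3.51% (2.33 to 5.26), 0.725% and 1.60%. The forkhead letters were found in 7.35% (5.55 to 9.66), 2.98% and 4.13%. Over all members, promoters included, these shares rest on 18, 22 and 46 regions.

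C/EBP letters (TTGCNNAA) were found in 20.6% of members, 12.4% of regions stronger in both and 15.2% of the other strong-enough regions. Lower shares in members than in the other strong-enough regions were seen for KLF-SP (GGGCGGG, 2.24% against 6.18%), CTCF (CCANNAG and GGC with 2 bases between, 2.24% against 4.83%) and NF-kappaB (GGG and TTCC with 3 bases between, 2.08% against 3.29%, with 5.96% in regions stronger in both). Regions stronger in both stood at 5.08% for KLF-SP and at 1.21% for CTCF, so a low CTCF share was not particular to members. The letters searched for AP-1 and the NRF2 motif (TGACNNNGC) can overlap, and the NRF2 shares were 12.6% and 13.1% over all regions, promoters included.

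Base composition moved with membership: the median GC content of the window was 45.3% in members, 48.8% in regions stronger in both and 51.2% in the other strong-enough regions. Among regions outside promoters with a GC content of 40% to 50%, AP-1 letters stood at 30.5% of members against 47.5% of the other strong-enough regions, TEAD at 31.2% against 22.9%, glucocorticoid receptor at 2.74% against 0.91% and p53-p63 at 4.11% against 2.15%. The forkhead gap was not seen in that band, with 4.79% against 4.60%, and little of the CTCF gap was, with 1.71% against 1.94%. At least 2 TEAD matches were found in 4.15% of members and 2.52% of the other strong-enough regions, at any GC content.

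**Figure D5:**
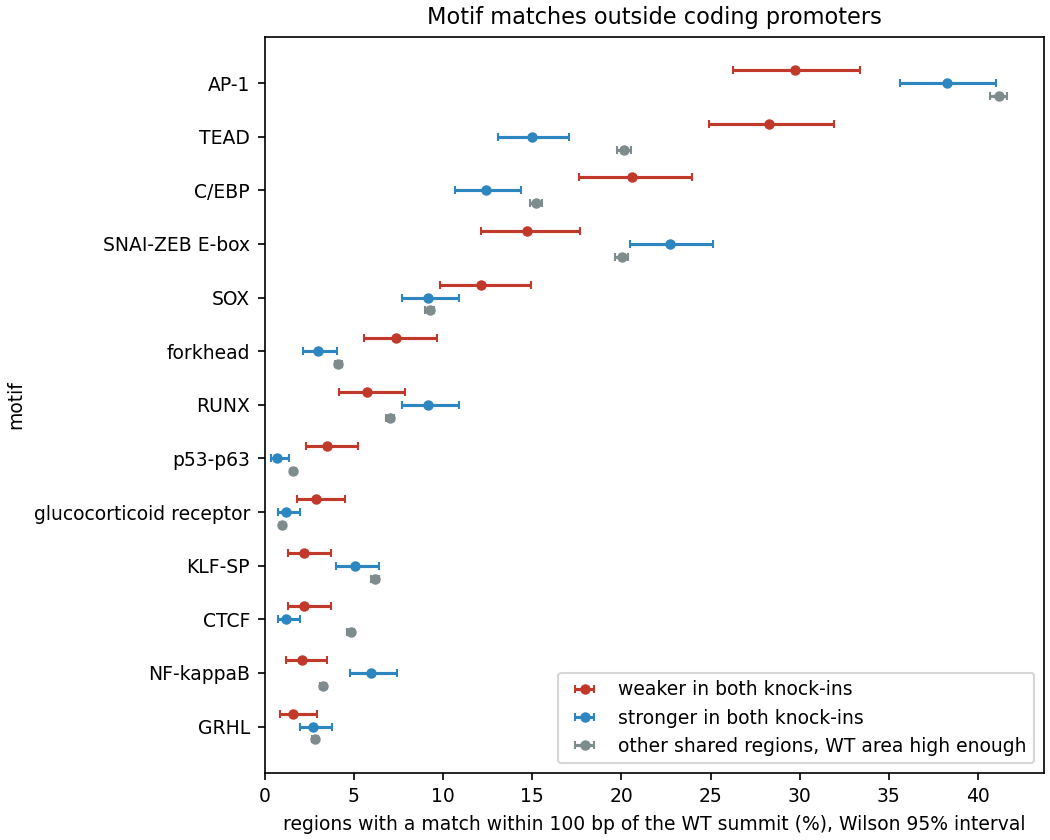
Share of regions outside promoters with a motif match within 100 bp of the WT summit, as percent with Wilson 95% interval, for members, regions stronger in both knock-ins, and the other strong-enough shared regions. Members lie lowest for AP-1 (29.7%) and highest for TEAD (28.3%), C/EBP, forkhead, p53-p63 and glucocorticoid receptor letters.

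Members with and without the commonest motif letters had similar differences. The 187 members with AP-1 letters had a median difference of -1.33 in E545K and -1.23 in H1047R, and the 447 without had -1.32 and -1.34. The 177 with TEAD letters had -1.29 and -1.37. The 18 with glucocorticoid receptor letters had -1.41 in E545K and -1.74 in H1047R, with median areas of 460 in E545K, 494 in H1047R and 1455 in WT.

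Genes of the FOXO list, those known as targets of FOXO factors or encoding them, had a member most often among the 16 lists examined. Of 18 FOXO genes with a shared region, 5 had a member (CCNG2, CITED2, FBXO32, IRS2 and KLF6), against 383 of 15355 coding genes (2.49%). These genes have many regions each, a median of 6.5 against 2, so regions were counted too: 6 of 139 FOXO regions (4.32%) were members, against 404 of 51807 (0.780%) over all genes. A further 5 of the 139 were stronger in both knock-ins, also a larger share than the 905 of 51807 over all genes. With regions within 20 kb of a start only, 1 FOXO gene had a member, on 1.89% of the list's regions against 0.604% over all genes. The lists were chosen with earlier results of these data known, and no test of a list was made.

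CITED2, which encodes a CBP/p300-binding co-regulator, had 2 members. The nearer lay 2130 bp from its start and had 332 in E545K, 270 in H1047R and 1138 in WT (chr6:139376462-139377163), and the other, 62167 bp away, had 525 in E545K, 295 in H1047R and 1532 in WT (chr6:139436362-139437257). The member in an intron of CCNG2, the gene of the cell-cycle inhibitor cyclin G2, had 306 in E545K, 481 in H1047R and 1133 in WT (chr4:77250981-77251523), and its window held matches to 3 of the 5 motifs. The member 68883 bp from KLF6, a Krüppel-like factor gene, had 224 in E545K, 355 in H1047R and 732 in WT (chr10:3716013-3716483). In all 4 of these regions the knock-in areas were under the median of their own lists.

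IRS2, which couples the insulin receptor to PI3K, had a member in its own intron with 239 in E545K, 266 in H1047R and 622 in WT (chr13:109764310-109764780). It was the only 1 of 31 genes of the PI3K-AKT-mTOR list with a member, and 3 genes of that list had a region stronger in both. By region the list had 1 member of 133 (0.752%), near the 0.780% over all genes. Stronger in both were 3 of the 133, against 905 of 51807 over all genes. FBXO32, which encodes a ubiquitin ligase subunit and is named here after its values were seen, had a member 54458 bp from its start with 464 in E545K, 401 in H1047R and 1111 in WT, on chromosome 8. The only shared region of PIK3CA was not a member.

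In the glucocorticoid response list, 3 of 13 genes had a member, on 3 of 108 regions (2.78%, against 0.780% over all genes), with a median of 9 regions per gene. In the same list 2 genes, TFCP2L1 among them, had a region stronger in both, on 2 of 108 regions against 905 of 51807 over all genes. The member 24127 bp from KLF9, a Krüppel-like factor gene induced by glucocorticoids, had 223 in E545K, 345 in H1047R and 673 in WT (chr9:70438479-70438903). The member assigned to CEBPD, a C/EBP factor gene, lay in an intron of SPIDR and had 291 in E545K, 564 in H1047R and 1305 in WT (chr8:47644034-47644612). The member in an intron of TFCP2L1, a transcription factor gene, had 546 in E545K, 539 in H1047R and 1361 in WT (chr2:121282578-121284010). None of these 3 held glucocorticoid receptor letters in its window.

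Among ERBB receptors and ligands, 2 of 13 genes had a member, on 2 of 76 regions (2.63%, against 0.780% over all genes). Stronger in both were 0 of the 76, against 905 of 51807 over all genes, a small share from which a count of 0 says little. The ERBB genes had a median of 4 regions each, against 2 over all genes. The receptor gene ERBB3 had 386 in E545K, 469 in H1047R and 1058 in WT, 8366 bp from its start (chr12:56071606-56072016). AREG, which encodes the EGF receptor ligand amphiregulin, had 329 in E545K, 417 in H1047R and 861 in WT, 36326 bp from its start (chr4:74408602-74408990). In the EGF-MAPK early response list, 2 genes of 27 had a member and 7 a region stronger in both. Of all 15355 genes with a shared region, 383 had a member and 825 a region stronger in both. By region 2 of 198 (1.01%) were members, against 0.780% over all genes. Stronger in both were 7 of the 198, a larger share than the 905 of 51807 over all genes.

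The 2 early response genes with a member encode inhibitors of this pathway, as do listed genes without a member, such as DUSP6 and SPRY2. DUSP4, a gene for a phosphatase of ERK, had 200 in E545K, 485 in H1047R and 991 in WT in its own intron (chr8:29339075-29339690). SPRY4, a Sprouty inhibitor gene, had 364 in E545K, 508 in H1047R and 1061 in WT, 85407 bp from its start (chr5:142239302-142239901), and it also had 1 region stronger in both. The DUSP4 peak in E545K was at the smallest area of its list.

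In the WNT list, 2 of 25 genes had a member, on 3 of 136 regions (2.21%, against 0.780% over all genes). Stronger in both were 0 of the 136, against 905 of 51807 over all genes. FZD2 had 2, the distal one given above, and the other, 4928 bp from the start, had 821 in E545K, 550 in H1047R and 2508 in WT (chr17:44551932-44553018). RNF43, a gene for a ubiquitin ligase that removes Frizzled receptors from the cell surface, had 251 in E545K, 430 in H1047R and 885 in WT in its own intron (chr17:58403365-58403987), although with the area per bp its H1047R difference was 0.34. At both FZD2 regions H1047R had the lower area, whereas E545K did at RNF43.

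In the TGF-beta list, 2 of 21 genes had a member, on 2 of 146 regions (1.37%, against 0.780% over all genes). The receptor gene TGFBR1 had 269 in E545K, 369 in H1047R and 877 in WT, 1908 bp from its start (chr9:99103062-99103423), in a window with p53-p63 letters. TGFBI, a matrix protein gene induced by TGF-beta and also the only 1 of 20 genes with a member in the mesenchymal list (0.885% of that list's regions), had 452 in E545K, 528 in H1047R and 1092 in WT (chr5:136019372-136019775). No gene of the TGF-beta list had a region stronger in both, that is 0 of 146 regions against 905 of 51807 over all genes.

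Of 18 YAP and TEAD targets, 2 had a member, on 2 of 127 regions (1.57%, against 0.780% over all genes), and 2, CRIM1 among them, had a region stronger in both. By region 2 of 127 were stronger in both, against 905 of 51807 over all genes. CRIM1, which encodes a membrane protein that binds BMPs, had 758 in E545K, 917 in H1047R and 2132 in WT in its own intron, 16278 bp from its start (chr2:36371166-36372611). NT5E, the gene of the ectonucleotidase CD73, had 633 in E545K, 909 in H1047R and 1915 in WT, 43345 bp from its start (chr6:85406387-85407061). Neither window held TEAD letters.

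The matrix adhesion list had a member at 1 gene of 24, on 0.498% of the list's regions against 0.780% over all genes. It was TNS1, which encodes the focal adhesion protein tensin 1, with 327 in E545K, 424 in H1047R and 903 in WT (chr2:218004029-218004730). The inflammation list had a member at 1 gene of 23, on 1 of 134 regions (0.746%). It was CSF3, the gene of the cytokine G-CSF, with 889 in E545K, 1000.3 in H1047R and 2260 in WT (chr17:40018288-40020019), in a region that lies in a UTR exon of the neighbouring gene MED24. In the same list 6 genes had a region stronger in both, on 7 of 134 regions against 905 of 51807 over all genes. No member was assigned to any of 20 cell junction genes, 20 basal markers, 19 luminal markers, 11 immune markers or 16 housekeeping genes, for which the upper Wilson bounds run from 16.1% to 25.9% of genes.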

How the data were processed

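ATAC-seq peak lists were analysed, 1 per genotype, each called on both samples of that genotype together (6 samples, 2 per genotype). Per the submitters' processing notes, the authors used Trim Galore 0.4.0, cutadapt, FastQC, SAMtools and Genrich 0.6.1 with build hg38, and an aligner not given in the sources used here. The deposited values used per peak were the signal, that is an area under the caller's -log10 p curve, and the -log10 p at its summit. No counts or depths are given, so depth is unknown, and no test was made: shares carry Wilson 95% intervals for counting error only.

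Peaks were merged with Python 3.11.15, numpy 2.4.6, pandas 2.3.3 and scipy 1.17.1, checked against bedtools, and the code was run on simulated data. The simulation used only stronger WT peaks, separate noise for each knock-in and no smallest area. It checks the code and does not show how reliable the members are. Sequences were read with pysam 0.24.0 from hg38, and figures drawn with matplotlib 3.10.9. Gene starts and features are those of canonical transcripts in GENCODE release 44. The 25 motifs and 16 gene lists, like the members, were chosen with earlier results of these data known.

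Named regions are the 12 members lowest in mean difference, the 6 with the largest WT area, all 8 at promoters, genes with at least 3 members, up to 3 genes per list, the 3 regions nearest the threshold on each side, and PIK3CA. Sequences are those of the 3 lowest members, the first 2 promoter members and up to 3 list members with AP-1 letters, and windows whose summit lies in a UTR of any annotated transcript (ESR2, CAPNS2) are not printed, nor any from chromosome 8. Some regions and sequences that these rules select are not reported here. Alternatives covered centring, signal value, threshold, peak minimum, merging, width, place and windows.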

Additional observations from a re-analysis of the deposited data

How the results depend on the processing

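The number of members depended most on the signal value and the threshold. It was 634 with the area, 4 with the summit -log10 p in its place (all 4 also members by area) and 112 with the area per bp (77 of them members by area). It was 3021 at a 1.5-fold threshold, 92 at -1.5 and 218 with only peaks of an area of at least 400 (177 of them members as given). Without subtracting list medians it was 770, with medians over all peaks 664, and with quantile normalisation, chosen after seeing the data, 632, of which 526, 497 and 602 were members as given. Merging at 50% overlap gave 634, a width limit of 2000 bp 619, and lists without chromosome arm 5p and the last 5 Mb of chromosome 8 gave 612.

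With the summit value, on 4 regions, the shares were 0% at promoters, 25% near a WT-only region, 50% for AP-1, 50% for TEAD, and 0% for glucocorticoid receptor, p53-p63 and forkhead letters. With the area per bp, AP-1 stood at 11.6%, WT-only regions at 37.5%, TEAD at 24.1%, glucocorticoid receptor at 1.79% and forkhead at 3.57%. At -1.5, promoters stood at 0%, WT-only regions at 52.2% and glucocorticoid receptor at 5.43%. Glucocorticoid receptor letters stood at 1.79% at the 1.5-fold threshold and at 5.50% with an area of at least 400. Promoters within 2 kb made up 3.15% of members and 19.7% of the other strong-enough regions. WT-only regions stood at 19.2% against 8.95% within 10 kb, and at 63.9% against 51.7% within 100 kb. Over the whole WT peak, members against the other strong-enough regions had AP-1 at 43.5% against 49.0%, TEAD at 49.5% against 42.7%, p53-p63 at 5.52% against 3.41% and forkhead at 16.2% against 10.9%. Within 50 bp of the summit, AP-1 stood at 21.1% against 26.6%, TEAD at 16.1% against 10.4% and p53-p63 at 2.21% against 0.867%. The alternatives for TEAD, glucocorticoid receptor, p53-p63 and forkhead letters were chosen after seeing the data.

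For each of the 52 named members the larger of its 2 differences was followed. With the area per bp, 7 stayed at -1 or below, 42 lay between -1 and 0, and 3 were above 0: 0.63 at ZNF281 and 0.34 at RNF43 (both H1047R minus WT), and 0.49 at CAPNS2 (E545K minus WT). With the summit value 49 lay above -1, without subtracting list medians 4, with medians over all peaks 5, with quantile normalisation 3 and under the width limit 2. The cause was not tested. No paired analysis was possible because each genotype has 1 list pooled over both samples, and for the same reason no replicate could be left out. Depth is unknown, so no limit from depth can be given.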
